A study of Homo sapiens with 4 samples.

Results

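The genes described here encode amphiphysin, its close relatives and the core proteins that bend, pinch off and uncoat endocytic membrane, measured by RNAseq in the esophageal adenocarcinoma line FLO-1 and its metastatic subline FLO-1LM. They are 10 of the 63677 genes in the count tables: *AMPH*, *BIN1*, *SH3GL1*, *SH3GLB1*, *DNM1*, *DNM2*, *SYNJ1*, *SYNJ2*, *CLTC* and *PICALM*. The group was chosen by function around *AMPH*, and *AMPH* itself was picked for its fold change in the same FLO-1LM against parental contrast. The values of the 10 genes in that contrast are therefore a description, no p-value is printed for any of them, and their count past the cut-off is given once, beside the share of all genes that passed it.

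FLO-1 is a human line grown from an esophageal adenocarcinoma. Its subline FLO-1LM comes from cells that grew out in the liver of NSG mice, a strain without functional lymphocytes, over several rounds of growth in these animals. It is not stated to be a single clone. No treatment is labelled for either line, and RNA of both was taken from subconfluent cultures on the day after the medium was renewed. Each line had 2 libraries, and whether these came from separate cultures is not stated, so the spread between them may be technical. No batch is given, and a batch that followed the lines could not be told apart from them.

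In clathrin-mediated endocytosis, adaptors gather cargo on the inner face of the plasma membrane and recruit clathrin, which assembles into a cage around the growing pit. Proteins with a BAR domain, a crescent-shaped dimer, bind curved membrane and help to narrow the neck, where the GTPase dynamin cuts the vesicle free. Synaptojanin, a lipid phosphatase, then removes the phosphoinositides that hold the coat. Amphiphysin and dynamin 1 are best known from nerve terminals, where this cycle recovers synaptic vesicle membrane, whereas BIN1, dynamin 2 and clathrin act in most cell types.

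The amphiphysin family has a neuronal member, *AMPH*, and a widely expressed one, *BIN1*, and the stretch before the start of each is shown because their fold changes below had opposite signs. Positions here are on GRCh37. The sequences are the 250 bases upstream of the RefSeq start (RefSeq table on GRCh38.p14), each matched exactly and at a single place in GRCh37. They are written 5′ to 3′ on the coding strand, with the hexamer GGGCGG and its reverse complement CCGCCC, the GC box, in capitals. *AMPH* lies at chr7:38423305-38671020 on the reverse strand (ENSG00000078053), and its promoter window at chr7:38670974-38671223. *BIN1* lies at chr2:127805603-127864864 on the reverse strand, and its window at chr2:127864731-127864980. Both windows reach into the outermost annotated start of their gene, so part of each is transcribed in some transcripts.
AMPH: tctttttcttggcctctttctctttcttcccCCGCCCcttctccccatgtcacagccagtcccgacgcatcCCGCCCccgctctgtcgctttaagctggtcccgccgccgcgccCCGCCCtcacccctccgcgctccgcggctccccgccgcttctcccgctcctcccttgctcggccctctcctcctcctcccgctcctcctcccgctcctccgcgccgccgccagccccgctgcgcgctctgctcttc
BIN1: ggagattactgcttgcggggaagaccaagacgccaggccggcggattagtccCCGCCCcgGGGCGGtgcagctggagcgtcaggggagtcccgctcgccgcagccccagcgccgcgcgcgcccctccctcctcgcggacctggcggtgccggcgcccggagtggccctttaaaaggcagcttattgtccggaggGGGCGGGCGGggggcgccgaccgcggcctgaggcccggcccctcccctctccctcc
The *AMPH* window held 3 GC boxes and 28 CpG dinucleotides with a GC content of 71.6%. The *BIN1* window held 4 GC boxes, 2 of them overlapping, and 30 CpG with a GC content of 75.6%. Among 35114 RefSeq promoters of the same length, 42.6% held a GC box, the median CpG number was 11 and the median GC content was 58.0%. Neither window held TATAAA or CCAAT on either strand, letters found in 10.7% and 32% of all promoters. With only the first listed RefSeq start taken for each gene, CpG numbers over the 10 genes ran from 2 in *PICALM* to 33 in *SH3GL1*. The windows of *SYNJ2* and *DNM1* lie wholly downstream of the outermost annotated start of their gene, so other starts were not covered. These matches are letters in a window and were not tied to any factor.

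*AMPH*, the amphiphysin that links clathrin and AP2 to dynamin at the vesicle neck, had 179 and 152 reads in the FLO-1LM libraries and 30 and 26 in the parental ones. Scaled to CPM, read counts scaled to one common library size after TMM, these were 8.03, 5.90, 1.36 and 1.36. Both FLO-1LM libraries stood well above both parental libraries, at 6.97 ± 1.51 against 1.358 ± 0.0035 CPM (mean ± SD, n = 2 each). The log2 fold change from the edgeR fit over all genes was 2.35 with a standard error of 0.30, a 5.10-fold higher level in FLO-1LM. Counting error alone was 7.47% and 8.11% of the *AMPH* reads in FLO-1LM and 18.3% and 19.6% in parental cells. Among the 69 genes called higher, *AMPH* ranked 2 by size of change, which restates the value it was picked for. Some genes that were not called had larger log2 fold changes, such as *MOXD1* at 3.03. It stayed a scarce transcript: per kilobase of exon its level exceeded 26.0% of the 16706 tested genes with a known length in FLO-1LM and 6.55% in parental cells. In bulk RNA, more cells that express a gene and more RNA per cell cannot be told apart.

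The widely expressed amphiphysin *BIN1*, known for shaping membrane tubules in muscle and for restraining MYC, had the opposite sign. Its CPM were 42.6 and 37.9 in FLO-1LM and 48.1 and 49.8 in parental cells. The lines did not overlap, but the log2 fold change was only -0.28 with a standard error of 0.10. It was -0.37 when FLO-1LM replicate 1 was left out.

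**Figure D1:**
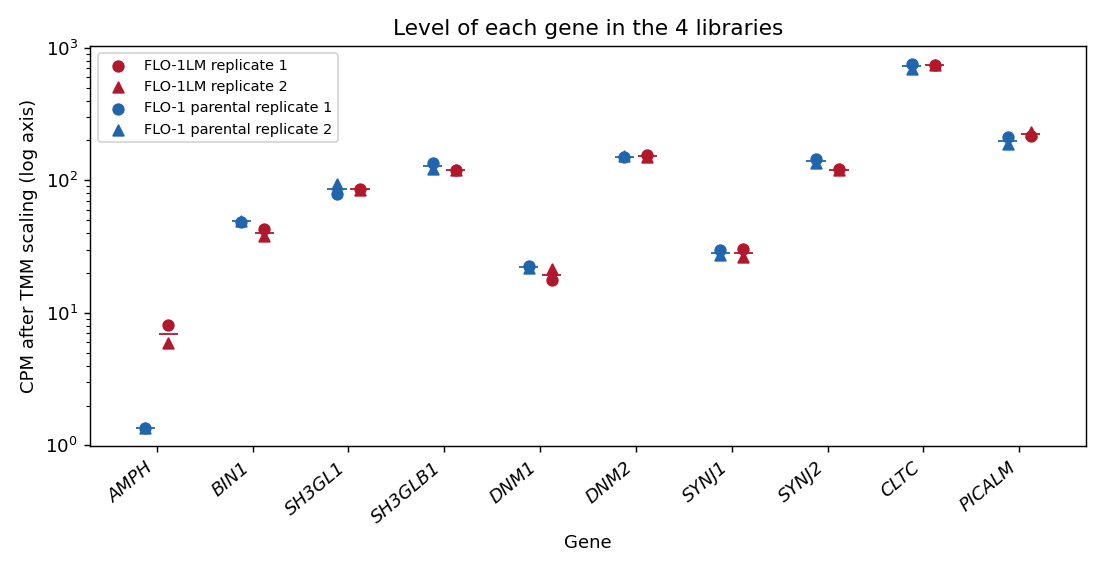
CPM of the 10 genes after TMM scaling on a log axis, with FLO-1LM in red, parental FLO-1 in blue, circles and triangles for replicates 1 and 2, and a line at the mean of each line. *AMPH* shows the widest gap between the lines among the 10, at 8.03 and 5.90 against 1.36 and 1.36 CPM.

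The endophilins carry a BAR domain and an SH3 domain that binds dynamin and synaptojanin. *SH3GL1*, endophilin A2 (chr19:4360367-4400544), had CPM of 86.7 and 84.3 in FLO-1LM and 78.4 and 93.1 in parental cells, with the FLO-1LM values inside the parental range. Its log2 fold change was -0.0035 with a standard error of 0.092, and 0.12 without parental replicate 2. *SH3GLB1*, endophilin B1, works mainly on internal membranes, including those of autophagy and mitochondria. It lies at chr1:87170253-87213867, and its CPM were 119.9 and 119.9 against 134.7 and 120.8. The parental values were both higher, the second by less than 1 CPM, and the log2 fold change was -0.092 with a standard error of 0.081.

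Of the dynamins, *DNM1*, the neuronal form (chr9:130953934-131017527), had CPM of 17.6 and 21.3 in FLO-1LM and 22.5 and 21.7 in parental cells. The lines did not overlap, although FLO-1LM replicate 2 lay close to the parental pair, and the log2 fold change was -0.19 with a standard error of 0.14. *DNM2*, the ubiquitous form (chr19:10828731-10944164), had CPM of 156.6 and 150.6 against 150.7 and 151.6. These ranges overlapped and the log2 fold change was 0.023 with a standard error of 0.075, a sign that turned to -0.008 when library totals replaced TMM factors and to -0.0055 without FLO-1LM replicate 1. Dynamin 1, like amphiphysin best known from nerve terminals, did not share the higher level of *AMPH* in FLO-1LM. The log2 fold change of *DNM1* was small beside its standard error, and was -0.058 without FLO-1LM replicate 1.

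Synaptojanin 1, encoded by *SYNJ1* (chr21:34001069-34100351), is the form that uncoats synaptic vesicles. Its CPM were 30.5 and 26.5 in FLO-1LM and 29.6 and 27.3 in parental cells, with overlapping ranges and a log2 fold change of 0.00085 with a standard error of 0.12, which was -0.031 with library totals in place of TMM factors and -0.11 without FLO-1LM replicate 1. *SYNJ2* (chr6:158402895-158520208) encodes the more widely expressed synaptojanin. Its CPM were 121.8 and 119.3 against 143.8 and 134.9, both FLO-1LM values lower, with a log2 fold change of -0.21 and a standard error of 0.078.

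*CLTC*, the clathrin heavy chain (chr17:57697045-57774317), had the highest level of the 10, also per kilobase, with CPM of 737.2 and 737.3 in FLO-1LM and 752.7 and 696.4 in parental cells. The FLO-1LM values lay inside the parental range and the log2 fold change was 0.025 with a standard error of 0.069, which turned to -0.0061 with library totals and to -0.030 without parental replicate 2. *PICALM* (chr11:85668218-85780924) encodes an adaptor that binds clathrin and phosphoinositides, bends membrane and helps to set vesicle size. Its CPM were 216.1 and 230.4 against 212.2 and 186.6, and the lines did not overlap, with a log2 fold change of 0.16 and a standard error of 0.080.

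All 10 genes passed the filter on low counts, and each also had at least 10 reads in every library. Only *AMPH* was called at an adjusted p below 0.05 (edgeR), where 2.23% of the 17143 tested genes were called, 0.402% higher and 1.83% lower in FLO-1LM. Of the other 9 genes, 0 were called by edgeR, by DESeq2 or by limma voom. Since *AMPH* was picked through this contrast and the others were grouped around it, nothing is read from these counts. Their log2 fold changes ran from -0.28 to 0.16, and the median over all 10 genes was -0.0013 beside 0.0016 over all tested genes. The libraries of the lines did not overlap in 6 of the 10 genes, and in 5 of the 9 without *AMPH*, where 42.6% of tested genes did not overlap.

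**Figure D2:**
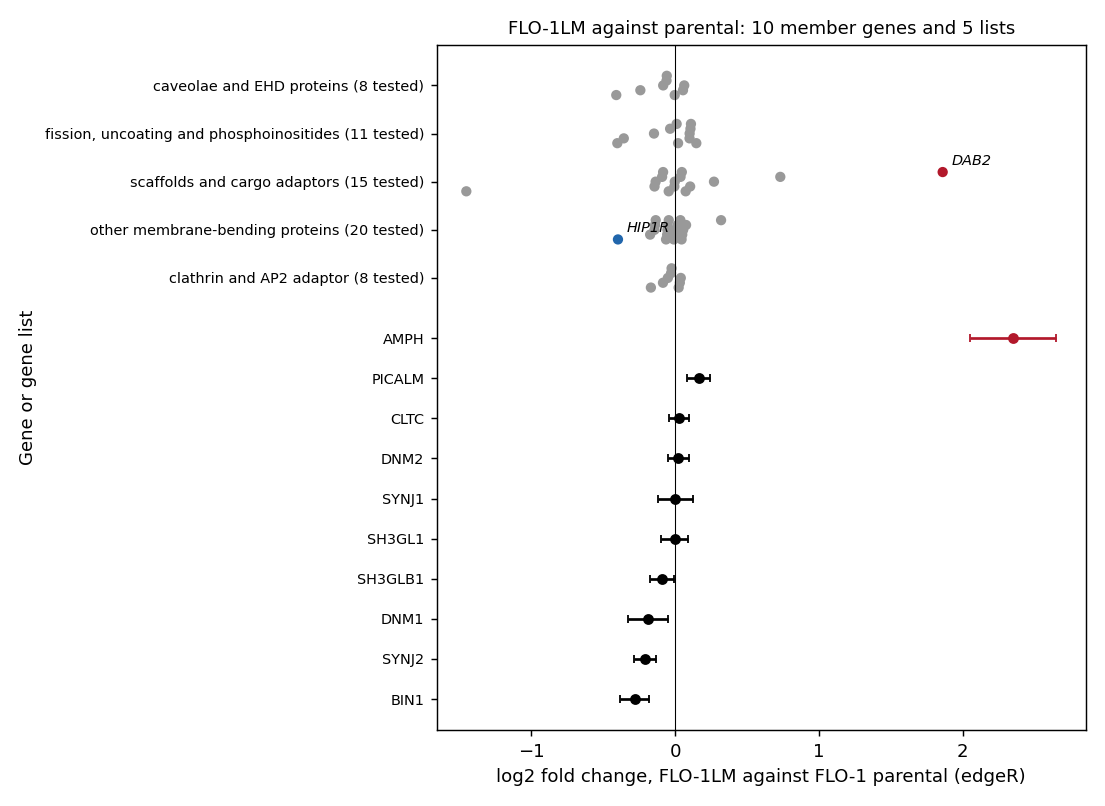
Log2 fold change of FLO-1LM against parental FLO-1 from edgeR, with standard error bars for the 10 genes and a point for each tested gene of 5 lists of other endocytic genes, colored where called (red higher, blue lower). *AMPH* stands at 2.35 while the other 9 genes lie between -0.28 and 0.16, and *DAB2* and *HIP1R* are the only list genes called.

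Per kilobase of exon, the order of mean levels was *CLTC* (60.5 CPM per kb), *PICALM* (33.3), *SH3GL1* (23.2), *SH3GLB1* (18.0), *SYNJ2* (10.4), *DNM2* (8.68), *BIN1* (6.50), *SYNJ1* (3.53), *DNM1* (1.94) and *AMPH* (0.759). This order was the same in each of the 4 libraries, and the ranges of neighbours over the libraries never overlapped. With the longest transcript as the length, *DNM2* moved from place 6 to 4 and *DNM1* changed places with *SYNJ1*, so the order of these neighbours rests on the length used. The distance between *AMPH* and its partners differed between the lines, which largely restates the fold change by which *AMPH* was picked. Per kb, *DNM1* exceeded *AMPH* by 1.12-fold and 1.84-fold in the FLO-1LM libraries and by 8.46-fold and 8.19-fold in the parental ones. For *CLTC* over *AMPH* the ratios were 41.7 and 56.8 against 251 and 233.

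Paralogues were then set side by side within their families. Of the per-kb level of *AMPH* and *BIN1* together, *AMPH* made up 19.1% and 16.3% in FLO-1LM and 3.41% and 3.29% in parental cells. The family sum, 7.67 and 6.60 CPM per kb in FLO-1LM and 7.26 and 7.50 in parental cells, overlapped between the lines. *BIN1* was the main amphiphysin transcript in every library. *SH3GL1* made up 89.9% and 94.0% of the endophilin A level in FLO-1LM and 91.6% and 92.1% in parental cells, and the neuronal *SH3GL2* had no read. *SH3GLB1* made up 46.2% and 44.9% of the endophilin B level against 51.6% and 44.1%. *DNM2* gave 80.1% and 75.5% of the dynamin level against 73.7% and 74.8%, and *DNM1* gave 14.7% and 17.4% against 18.0% and 17.5%. *SYNJ1* made up 28.0% and 25.6% of the synaptojanin level against 24.2% and 23.9%. *SNAP91*, the neuronal relative of *PICALM*, had no read in any library. *CLTC* took 79.9% and 80.0% of the clathrin heavy chain level against 79.8% and 78.9%, but *CLTCL1* is a close copy and how reads matching both were counted is not stated, so that split is uncertain. The shares also rest on the length used. With the longest transcript, *AMPH* made up 23.1% and 19.9% against 4.31% and 4.16%. *SH3GLB1* then made up 39.3% and 38.0% against 44.5% and 37.2%, and *SYNJ1* 20.7% and 18.8% against 17.7% and 17.4%.

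**Figure D3:**
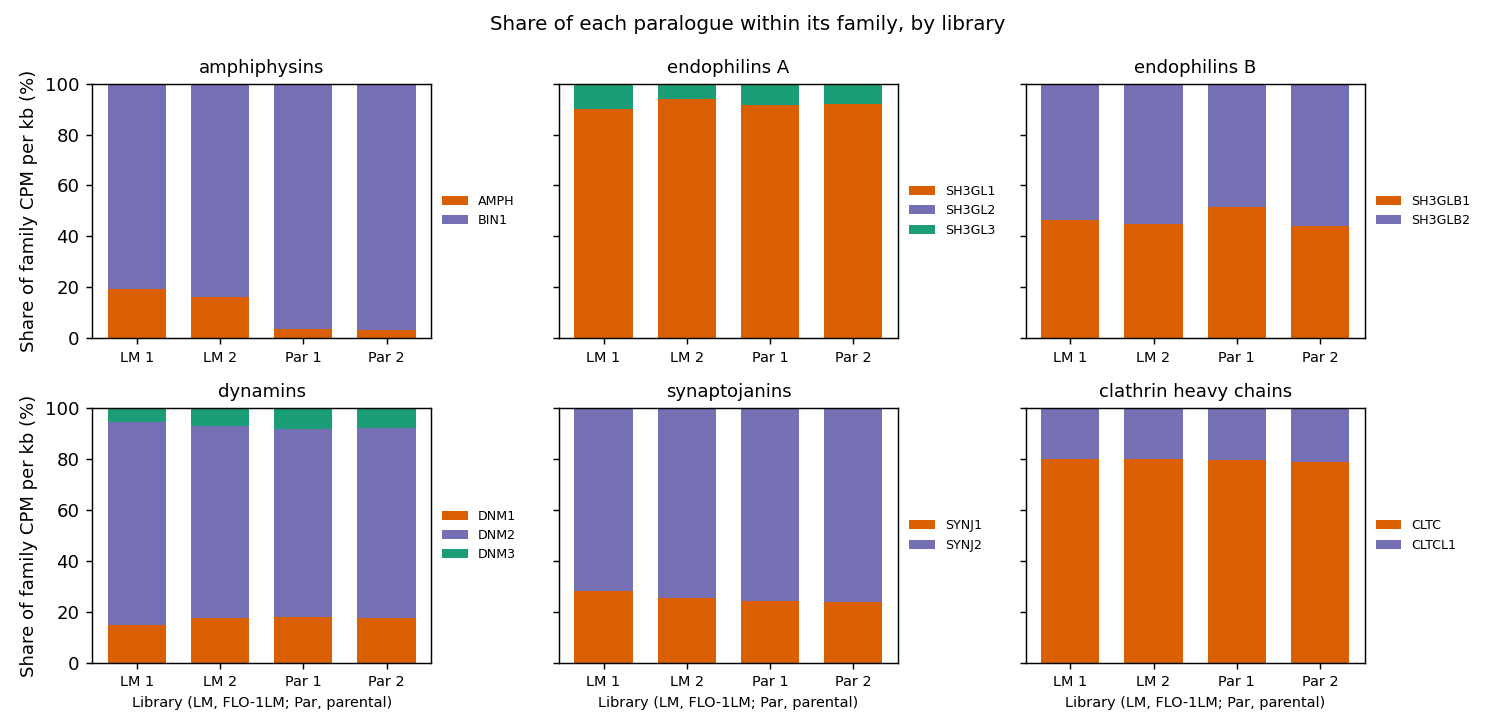
Share of each paralogue in the summed CPM per kb of its family, as stacked bars in percent for each library (LM, FLO-1LM; Par, parental). *AMPH* fills 19.1% and 16.3% of the amphiphysin bars in FLO-1LM against 3.41% and 3.29% in parental cells.

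The rest of the endocytic machinery was followed in 5 lists of 69 genes chosen by textbook function, of which 62 could be tested. The lists were drawn up with earlier results of these data known. Only 2 of the 62, or 3.23%, were called by edgeR, against the 2.23% of all tested genes, and DESeq2 and limma voom also called 2 each. The median log2 fold change was -0.0076, and the lines did not overlap in 28 of the 62, beside 42.6% of all tested genes. *HIP1R* fell and *DAB2* rose in FLO-1LM. The study had already reported *DAB2* as higher in FLO-1LM in these data, so its call is not an independent result.

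*HIP1R*, which ties clathrin coats to actin, had 1696 and 1914 reads in FLO-1LM and 2178 and 1907 in parental cells. At 75.2 ± 1.26 against 99.1 ± 0.464 CPM (SD, n = 2 each), its log2 fold change was -0.40 with a standard error of 0.082 (edgeR adjusted p = 0.0117). The call was lost without either parental library, with adjusted p of 0.200 and 0.191 (edgeR), and over the 10 alternatives it ran from 0.000815 to 0.200. *DAB2*, a clathrin adaptor for receptors of the LDL receptor family, had 142 and 118 reads in FLO-1LM and 50 and 13 in parental cells. Its log2 fold change was 1.86 with a standard error of 0.40 (edgeR adjusted p = 0.0149). The parental libraries differed widely in *DAB2*. Without parental replicate 2 the log2 fold change was 1.27 (edgeR adjusted p = 0.186), and without parental replicate 1 it was 3.002, and over the 10 alternatives the adjusted p ran from 3.78e-08 to 0.186.

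Among the clathrin and AP2 adaptor genes, 0 of 8 were called by edgeR, DESeq2 or limma voom and 0 had an unadjusted p under 0.05 in edgeR. Their log2 fold changes ran from -0.17 for *CLTB*, a clathrin light chain, to 0.039. *CLTA*, the other light chain, stood at 0.024 with a standard error of 0.075 (edgeR adjusted p = 0.940), and *AP2B1*, the AP2 subunit that binds clathrin, at -0.029 (edgeR adjusted p = 0.935). Among the other membrane-bending proteins, *HIP1R* was the 1 of 20 tested that passed. *PACSIN2*, a BAR protein of caveolae and endosomes, had a log2 fold change of -0.17 (edgeR adjusted p = 0.346), and *TRIP10*, a BAR protein that recruits actin regulators, had -0.056 (edgeR adjusted p = 0.859). Of the scaffolds and cargo adaptors, *DAB2* was the 1 of 15 tested that passed. *NECAP2*, an accessory protein of AP2, had -0.14 with a standard error of 0.083 (edgeR adjusted p = 0.533), and *ARRB2*, the arrestin that carries receptors to coated pits, had 0.27 with a standard error of 0.097 (edgeR adjusted p = 0.211).

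In the list of fission, uncoating and phosphoinositide genes, 0 of 11 were called by the 3 tools and 1, *MTSS1*, had an unadjusted p under 0.05 in edgeR. *HSPA8*, the chaperone that strips clathrin from vesicles, stood at 0.10 (edgeR adjusted p = 0.633) and *PIP5K1A*, which makes the lipid that recruits the coat, at -0.035 (edgeR adjusted p = 0.918). *DNM3*, the third dynamin, had -0.40 with a standard error of 0.20 (edgeR adjusted p = 0.426). Of the caveolae and EHD genes, which serve a clathrin-independent route, 0 of 8 were called by the 3 tools and *CAV2* and *CAVIN3* were the 2 with an unadjusted p under 0.05 in edgeR. *MTSS1* and *CAV2* were named after their values were seen, and their log2 fold changes were -0.36 and -0.24 (edgeR adjusted p = 0.337 and 0.386). *CAV1*, the main caveolar coat protein, had -0.0032 (edgeR adjusted p = 0.994), and its partner *CAVIN1* had 0.063 (edgeR adjusted p = 0.795).

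Since *AMPH* is best known from neurons, 12 neuronal and neuroendocrine markers were examined beside it. Of the 10 tested, 0 were called by edgeR, DESeq2 or limma voom, and 1 had an unadjusted p under 0.05 in edgeR. Of all tested genes, edgeR called 2.23%. Their log2 fold changes were positive in 8 and negative in 2, with a median of 0.15 beside 0.0016 over all tested genes, and ran from -0.18 for *STX1A* to 0.97. The gene with an unadjusted p under 0.05 was *SYN2*, a synaptic vesicle protein, with 72 and 54 reads in FLO-1LM and 33 and 23 in parental cells. Its log2 fold change was 0.97 with a standard error of 0.41 (edgeR adjusted p = 0.326). It was 1.25 without FLO-1LM replicate 2 and 0.63 without FLO-1LM replicate 1. The summed level of the 12 was 150.5 and 166.2 CPM in FLO-1LM and 149.7 and 155.7 in parental cells. *VAMP2*, a synaptic vesicle SNARE, had -0.043 (edgeR adjusted p = 0.933), *ENO2*, the neuronal enolase, had 0.040 (edgeR adjusted p = 0.913), and *CHGA*, a secretory granule protein, had 0.78 (edgeR adjusted p = 0.587). The other 2 were too low to test. *SYT1*, the calcium sensor of synaptic vesicles, had 4 reads in 1 FLO-1LM library and 0 in the other 3 libraries. *SNAP25*, a vesicle fusion protein, had 17 and 8 reads against 2 and 4.

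The cells were checked against markers of their labelled type and of others. Of 5 epithelial markers, 4 were tested and all 4 were called lower in FLO-1LM (edgeR), beside 1.83% of all tested genes. Their log2 fold changes ran from -2.21 for *CDH1* to -0.66 for *KRT18*. The study had already reported *CDH1* as lower in FLO-1LM in these data. *EPCAM* had 3 to 12 reads in each library. *VIM*, found in mesenchymal cells and in carcinoma lines, had 30647 to 40598 reads, and 5 of the 7 mesenchymal markers were too low to test. Leukocyte markers summed to at most 1.17 CPM, with *PTPRC* at 0 in every library. Of the hepatocyte markers, *ALB*, *TTR* and *APOB* were at 0 in every library, and the 5 summed to 13.4 to 18.1 CPM, nearly all from *SERPINA1*. Library totals ran from 19060310 to 25920336 reads. The files hold human gene rows only, and mouse reads were not analysed here.

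The genes around *AMPH* were followed to place it in its region. Values are given for 8 protein-coding genes that begin within 1 Mb of its start. Of these, 5 had no read in any library: *GPR141*, *NME8*, *EPDR1*, *SFRP4* and *STARD3NL*. A count of 0 allows at most 0.116 to 0.157 CPM, depending on the library (3 counts, counting error only). These 5 form an unbroken run at chr7:37723369-38270271, beside which 4530 of 19488 protein-coding genes (23.2%) had no read and 135 runs in the genome were at least as long. The 3 tested neighbours were *VPS41*, which tethers late endosomes to lysosomes, *YAE1* and *RALA*, a small GTPase of the exocytic route. By edgeR 0 were called and 0 had an unadjusted p under 0.05. *VPS41* had a log2 fold change of 0.044 (edgeR adjusted p = 0.913), *YAE1* of -0.019 (edgeR adjusted p = 0.986) and *RALA* of 0.076 (edgeR adjusted p = 0.825).

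**Figure D4:**
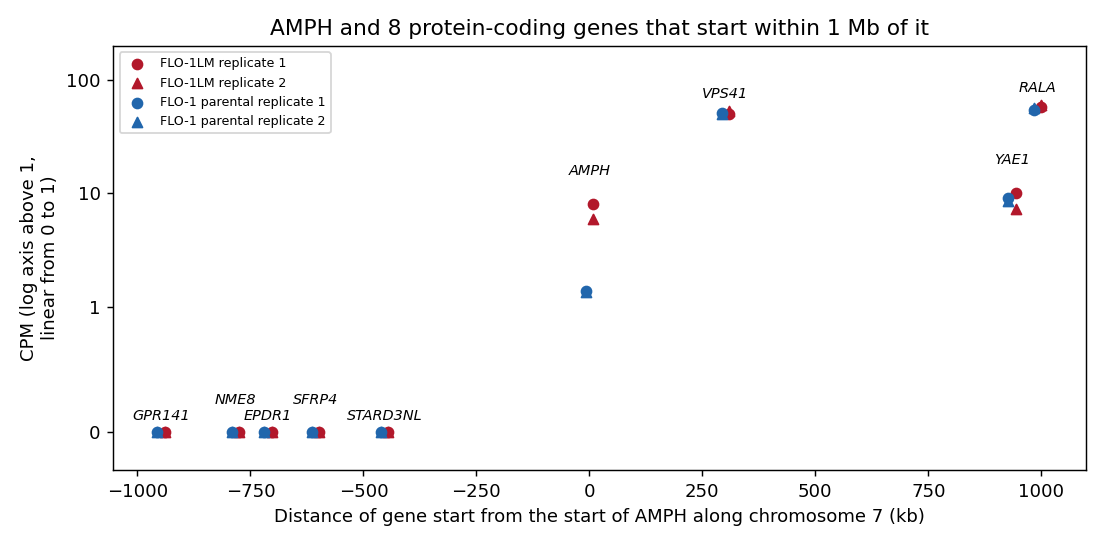
CPM of *AMPH* and of 8 protein-coding genes that start within 1 Mb of it, against the distance of their start in kb, with an axis that is linear from 0 to 1 and logarithmic above, and with the lines shifted slightly sideways for display. *AMPH* separates the lines, 5 neighbours sit at 0, and *VPS41*, *YAE1* and *RALA* have both lines at nearly one height.

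Other genes could lend reads to some of the 10, since the strand setting of the counting is not stated. A gene on the opposite strand shares exon bases with *SH3GL1* (ENSG00000267980, 194 bases), *DNM1* (*CIZ1*, 46 bases), *DNM2* (*TMED1*, 910 bases) and *CLTC* (*PTRH2*, 244 bases). None of these 4 was called by edgeR. Among the 55665 counted genes with a known position, none overlaps the exons of *AMPH*. Counted genes without a position could not be checked.

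The 5 tested genes whose pattern over the 4 libraries lay nearest to that of *AMPH*, by Euclidean distance of log2 CPM centred on each gene's mean, were *MOXD1* (distance 0.326), *PDCD6-DT* (0.397), *ARC* (0.456), *CAPS2* (0.51) and RP11-435B5.5 (0.54). All had fewer reads than *AMPH* in each library. *MOXD1*, nearest of all, had 18 and 12 reads in FLO-1LM and 2 and 1 in parental cells. *CAPS2* had 48 and 31 reads against 6 and 8, and *ARC*, an immediate early gene of neurons, had 31 and 31 against 7 and 5. With 4 libraries this likeness amounts to a similar step between the lines. The 5 were selected by that step, so no test of it is given.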

How the data were processed

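RNAseq was done on total RNA from 2 FLO-1LM and 2 parental FLO-1 libraries, grouped by the labelled cell line. Per the labels and the study's methods, RNA was made into directional libraries and sequenced on an Illumina NextSeq instrument. Reads were processed with bcl2fastq 2.17 and Trimmomatic 0.30, named in the submitters' processing notes, and aligned to GRCh37. The counting tool, its strand setting and the handling of reads with several matches are not given in the sources used here. The authors deposited raw counts per Ensembl gene, without normalization. Totals of 19060310 to 25920336 per library set the precision, with a median standard error of 0.145 for a log2 fold change.

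Genes were kept by filterByExpr (minimum count 10, minimum total 15), leaving 17143 of 63677. Libraries were scaled by TMM and compared with edgeR 4.0.16 (glmQLFit, glmQLFTest; R 4.3.3), with Benjamini-Hochberg adjustment over all tested genes and a cut-off of 0.05. Standard errors were obtained from the size of each log2 fold change over root F. With 2 libraries a line, p-values lean on the spread shared across genes and measure only the spread between these libraries. The code was tested on simulated data. Alternatives were DESeq2 1.42.0, limma 3.58.1 (voom, the authors' tool), RLE factors, library totals, other filters, another gene length and leaving out each library.

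The members and gene lists were chosen with earlier results of these data known. Named genes were every member, in each endocytic list every called gene, the 2 highest per kb and the 1 with the largest absolute log2 fold change, protein-coding genes starting within 1 Mb of *AMPH*, genes opposite a member's exons, and the 5 nearest in pattern. Among the neighbours of *AMPH*, 1 gene is not reported here. Marker genes were named from fixed marker lists. Positions and exon lengths are from GENCODE mapped to GRCh37, which placed 55665 of the 63677 genes. Promoter sequences are from RefSeq and matched all 10 members.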

Additional observations from a re-analysis of the deposited data

How the results depend on the processing

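The log2 fold change of *AMPH* ran from 2.11 to 2.56 over the 10 alternatives, which is also its range when each library was left out in turn. These refits use the 4 libraries in which *AMPH* was picked, so the range is a description. Of the 100 log2 fold changes of the members under alternatives, 92 moved by less than the spread between replicates and 8 by more. Among the 8 was *AMPH* without FLO-1LM replicate 1, which went from 2.35 to 2.11. Leaving out a replicate can hardly move a value by more than the spread of its own pair. For those fits the comparison therefore says little about stability. The signs of *SH3GL1*, *SYNJ1*, *DNM2* and *CLTC*, all near 0, changed under some alternatives, and those of the other 6 members did not under any of the 10. Over all genes, the 382 calls, 69 higher and 313 lower, became 577 with 147 higher when no filter on low counts was used, and 203 lower with at least 10 counts in every library. Leaving out each library in turn gave 116 to 1052 calls, 20 to 356 higher and 96 to 696 lower. In those fits the spread comes from the only pair left whole. In the endocytic lists these fits called 0 to 4 genes: *HIP1R*, *DAB2*, *ARRB2* and *CAV2* without FLO-1LM replicate 1, *HIP1R*, *DAB2* and *DNM3* without FLO-1LM replicate 2, *DAB2* without parental replicate 1, and 0 by edgeR without parental replicate 2, where 4 had an unadjusted p under 0.05. The other tools, scalings and filters called 2 each. DESeq2 gave no adjusted p for 8015 genes. With the longest transcript as the length, 9 of the 10 levels per kb moved by more than their SD over all 4 libraries. That SD includes the gap between the lines. The level of *AMPH* went from 0.759 to 1.29 CPM per kb, beside an SD of 0.611 that this gap widens. *AMPH*, with 26 to 30 reads in each parental library, is limited by depth there.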

Other observations

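Stonins, cargo adaptors that partner AP2, had values of opposite sign at low counts. *STON2* had the most negative log2 fold change of any tested gene in the 5 endocytic lists, -1.45 with a standard error of 0.74 (edgeR adjusted p = 0.449), at 0.224 and 0.350 CPM in FLO-1LM and 0.771 and 0.834 in parental cells. *STON1* had 0.73 (edgeR adjusted p = 0.421), at 3.19 and 2.91 CPM against 1.54 and 2.14. Neither passed the cut-off. *FCHO1*, an early initiator of coated pits, had 0.32 (edgeR adjusted p = 0.307) and *CAVIN3*, a caveolar coat protein, had -0.41 (edgeR adjusted p = 0.263). *STON1*, *STON2* and *FCHO1* were named after their values were seen.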
